A study of Sus scrofa with 26 samples.

Results

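Transferrin (TF) and 7 further genes of iron handling and red cells were followed in the backfat, that is the subcutaneous adipose tissue, of growing castrated male pigs. The other genes were the transferrin receptor TFRC, the ferritin heavy chain FTH1, the iron exporter SLC40A1 (ferroportin), the haem oxygenase HMOX1, the beta globin HBB, the erythroid enzyme ALAS2 and the red cell anion exchanger SLC4A1. The probes that the array annotation assigns to one of these genes were retained, which gave 31 probes of the 60305 that are not controls. Repeat printings of the same bases, and the ferritin sequences described under the processing, were not counted. One of them is named ICA in the files (porcine inhibitor of carbonic anhydrase, a paralogue of TF) and was reached only because its accession leads to a RefSeq gene with the symbol TF, so it was described apart. The genes were selected on measured values, since earlier results of the same arrays showed a rise of TF and a lower level of red cell genes under heat. The difference between temperatures is therefore given for them as a description, without a test.

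The 26 pigs, 1 per array, were Creole, Large White (LW) or their F1 cross, and were slaughtered either under thermoneutral conditions (TN, 24 °C) or under heat stress (HS). HS is 30 °C in the sample labels and 32 °C for 5 days in the series text. There were 3 Creole, 4 F1 and 4 LW arrays in TN, and 5 arrays of each breed in HS. All TN pigs had been slaughtered by the time the room was warmed, so temperature, day of slaughter and age cannot be told apart. The pigs of a breed came from a few litters and shared pens, and neither litter nor pen is in the labels. The arrays were spread over 5 slides, each with both temperatures. The breeds were not balanced within slides: on slide 5 the TN arrays were LW and the HS arrays Creole and F1. A temperature difference within a slide can therefore also hold a breed difference. Between 68.51% and 76.58% of the spots of an array were well above background, and the median negative control lay between 4.81 and 5.04 on the log2 scale. A probe was tested when it was well above background on at least 8 arrays, which 44703 probes and 28 of the 31 probes of these genes were. All levels below are log2 intensities after quantile normalization, so 1 unit is a doubling of the fluorescence, and the level of one probe is not comparable with that of another.

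Transferrin is the protein that carries ferric iron in plasma. Cells take it up through TFRC, store iron in ferritin shells built from heavy and light chains, and release it through ferroportin. HMOX1 opens the haem ring and frees its iron. ALAS2 starts haem synthesis in red cell precursors, HBB is the beta chain of haemoglobin, and SLC4A1 is the main anion exchanger of the red cell membrane. In adipose tissue the red cell transcripts come with blood, and iron is taken up by adipocytes and recycled by macrophages. In bulk tissue, fewer cells of a type and less RNA per cell cannot be told apart.

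The 6 adipocyte markers (ADIPOQ, PLIN1, FABP4, LEP, CIDEC and LIPE) were each well above background on 26 of 26 arrays, and their mean level lay between 15.63 and 16.42 in HS and between 15.7 and 16.24 in TN. Read by the brightest probe of each, ADIPOQ was 0.16 higher in HS (limma adjusted p = 0.0379), and the other 5 did not pass, a share of 16.67% beside 12.2% over all tested probes. Of the 2 other tested PLIN1 probes, 1 passed as lower in HS.

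Probe by probe, TF was the gene with the largest difference between temperatures among the 8, and its 4 probes did not behave alike. Their sequences are shown because each reads a different stretch of the transcript: the longest run of bases shared by any pair of them is 8. The orientation of these and of all other probes relative to their transcripts was not checked.
A_72_P308693: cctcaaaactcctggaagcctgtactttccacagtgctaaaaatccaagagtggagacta
A_72_P318598: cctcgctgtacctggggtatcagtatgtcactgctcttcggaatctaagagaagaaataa
O10046: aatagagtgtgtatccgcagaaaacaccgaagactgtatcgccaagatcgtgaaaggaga
A_72_P687306: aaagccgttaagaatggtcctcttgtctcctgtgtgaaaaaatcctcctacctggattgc

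The brightest TF probe, A_72_P308693, was well above background on all 26 arrays. In Creole pigs its levels were 6.44, 8.65 and 7.44 in TN and 8.44, 8.09, 8.07, 8.37 and 8.58 in HS. The Creole HS arrays lay close together, whereas the TN arrays of that breed were spread over more than 2 log2 units and one of them was the highest of the 26. In F1 pigs the levels were 6.34, 5.85, 6.77 and 6.84 in TN and 7.6, 6.89, 7.79, 8.4 and 8.47 in HS, without overlap. LW pigs had 7.23, 6.95, 6.03 and 6.23 in TN and 8.41, 8.36, 7.81, 7.44 and 7.52 in HS, again without overlap. Across breeds the HS mean was 8.02 ± 0.49 (SD, n = 15) and the TN mean 6.8 ± 0.79 (SD, n = 11).

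With breed in the model, this probe was 1.18 higher in HS (SE 0.21), a 2.27-fold difference. The difference was 0.8 (SE 0.4) in Creole, 1.38 (SE 0.36) in F1 and 1.3 (SE 0.36) in LW pigs. All 15 HS arrays were above the TN mean of their own breed, and the difference was positive on 5 of 5 slides. None of them was above all TN arrays, because of Creole TN array 2 at 8.65. Without that array the difference was 1.35. The ordering of the 6 groups ran from Creole HS to F1 TN, 1.86 apart, and none of the 5 neighbouring pairs in that order differed by more than the larger of their SDs.

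On both dimmer TF probes the difference had the same sign, but most TN arrays were not well above background. Probe A_72_P318598 was well above background on 14 of 15 HS arrays but on 2 of 11 TN arrays, with means of 5.92 ± 0.23 (SD, n = 15) and 5.55 ± 0.34 (SD, n = 11). Probe O10046 was well above background on 10 of 15 HS arrays and on 1 of 11 TN arrays, with means of 5.73 ± 0.24 (SD, n = 15) and 5.37 ± 0.29 (SD, n = 11). These probes thus entered the tests mostly through the HS arrays, and none of the F1 TN arrays was well above background for either. The size of their differences is therefore imprecise. It was 0.35 and 0.34 on the signals used here, and 1.4 and 1.48 on background-subtracted signals scaled to the 75th percentile, a setting that changes both the background and the scaling. That of the brightest probe was 1.65 in that setting and 1 with normexp background correction alone.

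The TF probe A_72_P687306 stood apart. It was well above background on every array, with means of 6.61 ± 0.16 (SD, n = 15) in HS and 6.53 ± 0.15 (SD, n = 11) in TN. The levels ran from 6.39 to 6.84 in HS and from 6.22 to 6.69 in TN, and 5 of 15 HS arrays were above every TN array. Its difference was 0.09 in all and 0.23 (SE 0.11) in F1 pigs, and 10 of 15 HS arrays were above their breed's TN mean. Across the 26 deviations from the group means, the 3 other TF probes correlated with each other at r = 0.675 to 0.822, whereas their correlations with this probe were −0.117 to −0.034. These points share the same arrays, and the values are a description.

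**Figure D1:**
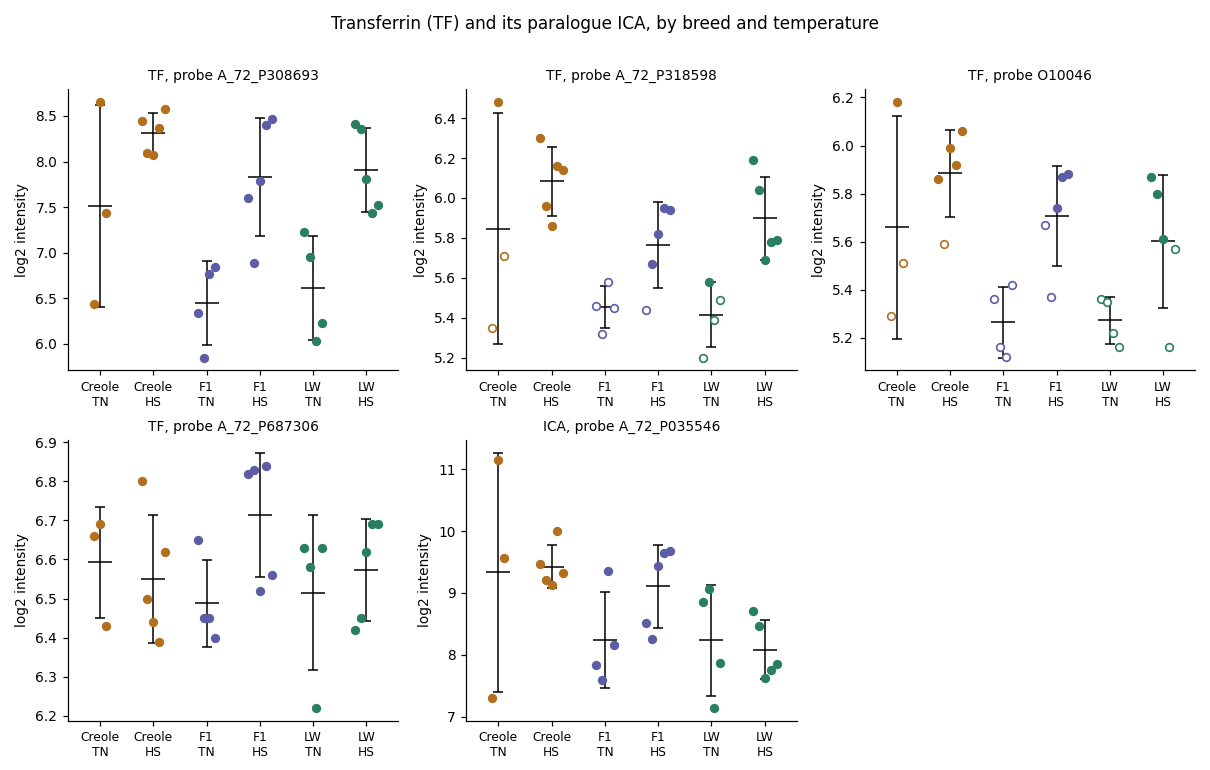
Log2 intensity (y axis) of the 4 TF probes and of the ICA probe on each of the 26 arrays, by breed and temperature. Filled points are well above background and open points are not, and bars give the group mean ± SD. On probe A_72_P308693 the F1 and LW groups do not overlap between temperatures, and on the ICA probe all 9 LW arrays lie below the Creole median.

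The myelin genes MBP and PMP22 rose in HS beside TF, which Schwann cells and oligodendrocytes are also known to express. Over all tested probes 12.2% passed the adjusted threshold of 0.05 for HS minus TN, 5.18% as higher and 7.02% as lower in HS. Of 5 markers of myelinating glia, MBP (1.13 higher, limma adjusted p = 0.000555) and PMP22 (0.40, adjusted p = 0.000612) rose, and SOX10, S100B and CNP had differences of 0.06, 0.36 and 0.05 that did not pass. The mean level of these 5 markers lay between 10.41 and 10.97 in HS and between 9.97 and 10.74 in TN. Of 5 markers of glandular epithelium, KRT18 (1.1) and KRT8 (0.57) rose, and the mean level of the 5 ranged from 7.24 to 9.5 in HS and from 6.9 to 9.02 in TN. Of 6 fibroblast markers 4 rose, the collagen genes COL1A1 (0.31), COL1A2 (0.42) and COL3A1 (0.25) and the proteoglycan gene DCN (0.35), and the mean level of the 6 ranged from 14.59 to 15.48 in HS and from 13.96 to 15.18 in TN. In contrast, the 6 tested hepatocyte markers had a median difference of 0.01 and none passed in limma. These markers, too, were chosen with earlier results of these data known. The part of these cells in the TF difference was not tested.

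The breed comparison was not used to choose the genes and was tested. Over all tested probes, 14.3% passed the adjusted threshold of 0.05 for LW minus Creole, and 7.43% passed it as lower in LW. Of the 28 probes of these genes 2 passed, both lower in LW, a share of 7.14% that is no larger than the background. They were ICA and the TF probe O10046. The sign was more uniform than the calls: 26 of the 28 differences were negative, with a median of −0.10 beside 0.0025 over all tested probes. The probes of a gene read the same RNA, so these 28 signs are not independent.

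ICA encodes a transferrin-like plasma protein of the pig that inhibits carbonic anhydrase. In the RefSeq table of pig genes its gene lies on the same chromosome as TF, with 0 annotated genes between them, and the ICA probe shares no run longer than 6 bases with any TF probe. In Creole pigs its levels were 7.3, 11.15 and 9.56 in TN and 9.47, 9.21, 9.13, 10.01 and 9.32 in HS. F1 pigs had 7.84, 7.59, 9.35 and 8.16 in TN and 8.52, 8.26, 9.44, 9.65 and 9.68 in HS. LW pigs had 8.86, 9.07, 7.14 and 7.87 in TN and 8.71, 8.46, 7.63, 7.76 and 7.85 in HS. The 9 LW arrays were all below the median of the Creole arrays, but only 1 of them was below every Creole array.

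ICA was 1.22 lower in LW than in Creole (SE 0.39, 95% interval −2.02 to −0.42, limma adjusted p = 0.0359), which is 2.33-fold. The F1 mean of 8.72 ± 0.81 (SD, n = 9) lay between the Creole mean of 9.39 ± 1.07 (SD, n = 8) and the LW mean of 8.15 ± 0.65 (SD, n = 9). A second printing of the same 60 bases elsewhere on the array gave −1.23 with an adjusted p of 0.0391. Leaving out 1 array at a time gave differences of −1.53 to −0.91, and the call was lost without any 1 of 9 arrays, with an adjusted p of up to 0.0926 without Creole TN array 2. Within the 4 slides that hold both breeds the difference was 0.33, −3.06, −1.11 and −1.82. The −3.06 and the −1.82 each rest on 1 Creole array, Creole TN array 2 and Creole HS array 5. The LW arrays beside the latter were TN, so the −1.82 also holds a temperature difference.

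For TF itself, probe O10046 was 0.32 lower in LW (SE 0.11, adjusted p = 0.0488). This call was lost in 5 of the alternative settings and without any 1 of 18 arrays, with an adjusted p of 0.123 without Creole TN array 2. On O10046, 3 of 5 LW HS arrays and 0 of 4 LW TN arrays were well above background, so the size of this breed difference is imprecise. On background-subtracted signals scaled to the 75th percentile it was −1.1 (limma adjusted p = 0.089). The brightest TF probe was 0.60 lower in LW (SE 0.26, 95% interval −1.13 to −0.06) and did not pass (adjusted p = 0.126), nor did A_72_P318598 (−0.28, adjusted p = 0.099). Without Creole TN array 1 they were at −0.73 and −0.35, and without Creole TN array 2 at −0.37 and −0.17. A_72_P318598 passed in 1 of the 26 fits with 1 array left out (limma adjusted p = 0.0392). The fourth probe, A_72_P687306, was again apart, at −0.01 (95% interval −0.17 to 0.15). TF and ICA varied together from animal to animal: over the 26 deviations from group means, r was 0.889 between A_72_P308693 and the ICA probe. Between temperatures ICA differed by 0.28, with 9 of 15 HS arrays above their breed's TN mean, but by 0.05 without Creole TN array 1 and by 0.52 without Creole TN array 2.

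Single markers of several cell types also differed between these breeds, where 14.3% of all tested probes did. Of the 6 adipocyte markers 1 passed, the hormone gene LEP, 1.23 lower in LW (limma adjusted p = 0.0439). KRT8 was 0.89 higher (adjusted p = 0.00654), 1 of 5 epithelial markers, PMP22 0.33 higher (adjusted p = 0.00967), 1 of 5 glial markers, and ITGA2B 0.41 higher (adjusted p = 0.0109), 1 of 3 tested platelet markers. Of the 6 fibroblast markers 3 were higher in LW, COL1A1 (0.34), COL1A2 (0.53) and DCN (0.40). The part of these cells in the breed differences of ICA and TF was not tested.

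The probes of iron import, iron export and haem breakdown had smaller differences between temperatures than the brightest TF probe, all between −0.22 and 0.26. TFRC, which brings transferrin-bound iron into the cell, had 1 bright probe, A_72_P299604. Its levels were 12.06, 10.64 and 11.71 in Creole TN and 11.63, 10.4, 11.56, 11.11 and 10.14 in Creole HS. F1 pigs gave 10.19, 11.4, 11.33 and 10.75 in TN and 11.39, 9.85, 10.37, 12.19 and 12.43 in HS. In LW pigs the levels were 9.98, 11.55, 11.08 and 10.65 in TN and 9.65, 10.11, 10.33, 10.71 and 10.65 in HS. The groups overlapped in each breed. All 5 LW HS arrays were nevertheless below the LW TN mean, and the 2 highest values of the 26 were F1 HS arrays. The difference between temperatures was −0.22, with 10 of 15 HS arrays below their TN mean. It was −0.34 without F1 HS array 5 and −0.12 without LW TN array 2.

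LW pigs had 0.65 less of this TFRC transcript signal than Creole pigs on the log2 scale (SE 0.34, 95% interval −1.34 to 0.04), which did not pass (adjusted p = 0.203). The probe carries a mouse accession in the annotation. A dimmer porcine probe, A_72_P035411, which was well above background on 12 arrays, had a difference between temperatures of 0.14 and a breed difference of −0.31 (adjusted p = 0.206). A second printing of its 60 bases was well above background on 6 arrays and was not tested, with means of 5.47 ± 0.31 (SD, n = 15) in HS and 5.54 ± 0.21 (SD, n = 11) in TN, so the sign of this temperature difference is not settled. The first printing followed the bright probe at r = 0.615 over the deviations from group means. The remaining TFRC probe, O1642, was well above background on 5 arrays and was not tested.

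SLC40A1, the only known iron exporter of animal cells, was read by A_72_P256402, which is assigned to the gene by its description alone. In F1 pigs its levels were 12.27, 12.29, 12.17 and 12.44 in TN and 12.92, 12.83, 12.66, 12.68 and 12.78 in HS, without overlap. Creole pigs had 12.44, 12.17 and 12.53 in TN and 12.7, 12.77, 12.15, 12.62 and 12.99 in HS. LW pigs had 12.95, 12.58, 12.71 and 13.07 in TN and 12.68, 13.28, 12.55, 13.06 and 12.69 in HS. The LW groups overlapped, from 12.58 to 13.07 in TN and from 12.55 to 13.28 in HS, and 1 Creole HS array, at 12.15, was the lowest of the 26. The difference between temperatures was 0.26 in all, 0.48 (SE 0.15) in F1, 0.27 (SE 0.16) in Creole and 0.03 (SE 0.15) in LW pigs. The interaction of breed and temperature did not pass for this probe (adjusted p = 0.897).

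This SLC40A1 probe was 0.31 higher in LW than in Creole (SE 0.11, 95% interval 0.08 to 0.55) and did not pass (adjusted p = 0.0617). The second probe of the gene, O9278, had the opposite sign, at −0.23 (adjusted p = 0.0754). O9278 was well above background on 13 arrays and followed the first probe at r = 0.362. Its sequence resembles the opposite strand of the coding sequence, which was not checked by alignment, so what it reads is uncertain.

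**Figure D2:**
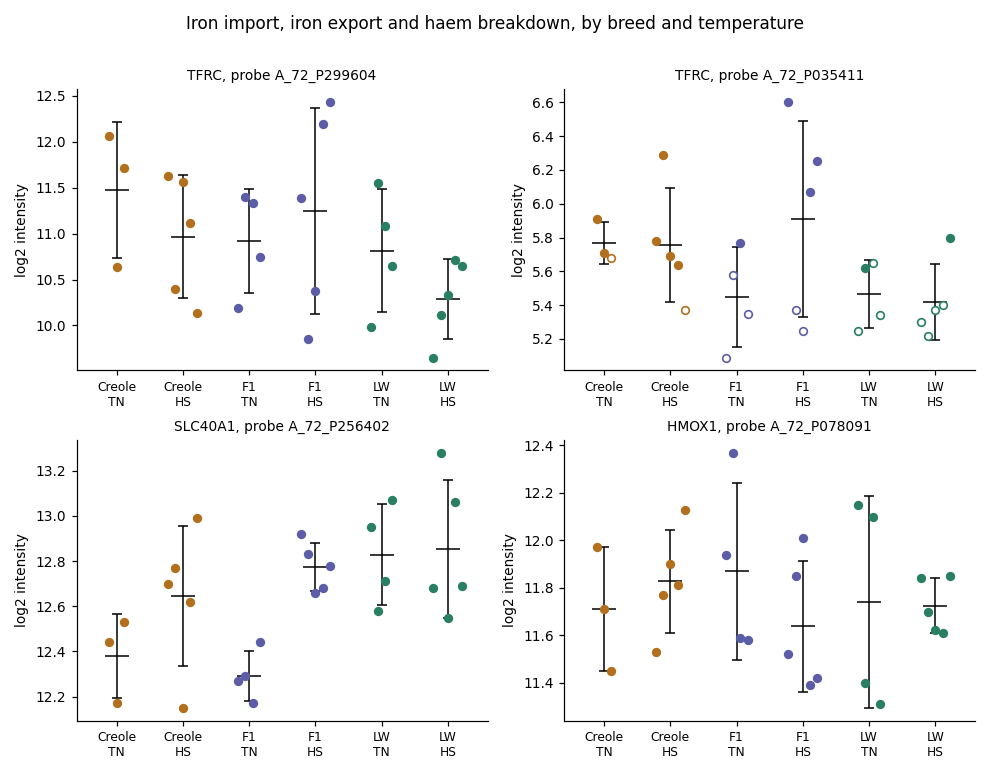
Log2 intensity (y axis) of 2 TFRC probes and of the brightest SLC40A1 and HMOX1 probes on each of the 26 arrays, by breed and temperature. Filled points are well above background, and bars give the group mean ± SD. The F1 groups of SLC40A1 do not overlap, and all other pairs of temperatures overlap.

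HMOX1, the inducible enzyme of haem breakdown, had 4 probes, which agreed closely in their variation from animal to animal (r between 0.83 and 0.963 in the 6 pairs). On the brightest, A_72_P078091, the levels were 11.97, 11.71 and 11.45 in Creole TN and 11.53, 11.77, 11.9, 11.81 and 12.13 in Creole HS. F1 pigs gave 11.94, 12.37, 11.59 and 11.58 in TN and 11.52, 11.85, 12.01, 11.39 and 11.42 in HS. LW pigs gave 12.15, 11.4, 12.1 and 11.31 in TN and 11.84, 11.7, 11.62, 11.61 and 11.85 in HS. LW TN pigs fell into a high and a low pair, and the LW HS arrays lay between them. Over the 4 probes the difference between temperatures was −0.12 to −0.05. Within breeds it was 0.07 to 0.2 in Creole, −0.4 to −0.23 in F1 and −0.14 to 0.05 in LW pigs (SE 0.17 to 0.21). With 1 array left out the difference over all breeds was −0.16 to 0.01, the upper end without F1 TN array 2. The interaction did not pass on any of the 4 (smallest adjusted p = 0.897). The breed differences were −0.25 to −0.06, with no adjusted p below 0.249.

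FTH1, the ferritin chain that oxidises iron for storage, had 11 tested probes, with mean levels of 17.21 to 18.53. The brightest was A_72_P733169. The 12th probe, A_72_P186951, named from a horse sequence cluster, was not well above background on any array. Several FTH1 probes read the same bases, so they are not independent measurements: 9 of the 66 pairs share a run of 19 bases or more. The pair with the longest shared run is shown, with the 35 shared bases in capitals.
A_72_P729674: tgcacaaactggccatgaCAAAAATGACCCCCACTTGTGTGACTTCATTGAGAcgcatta
A_72_P731798: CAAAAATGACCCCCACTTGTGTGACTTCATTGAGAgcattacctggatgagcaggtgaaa

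On the brightest FTH1 probe the levels were 18.6, 18.54 and 18.45 in Creole TN and 18.72, 18.62, 18.58, 18.56 and 18.68 in Creole HS. F1 pigs gave 18.43, 18.5, 18.54 and 18.49 in TN and 18.48, 18.62, 18.61, 18.36 and 18.49 in HS. LW pigs gave 18.31, 18.52, 18.4 and 18.44 in TN and 18.56, 18.54, 18.59, 18.55 and 18.6 in HS. The LW groups did not overlap, whereas the lowest F1 array was an HS array. The whole range over 26 arrays was 18.31 to 18.72.

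Small differences of one sign ran through all FTH1 probes. HS was higher by 0.09 to 0.17 on the 11 probes, with a median of 0.11, which is at most a 1.13-fold difference. Between 12 and 15 of the 15 HS arrays were above their TN mean, depending on the probe. Under scaling to the 75th percentile the same differences were smaller, 0.02 to 0.07. The probes varied together from animal to animal, with r between 0.577 and 0.966 over the 55 pairs. LW was lower than Creole by 0.04 to 0.10 on the 11 probes, and no adjusted p was below 0.166.

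**Figure D3:**
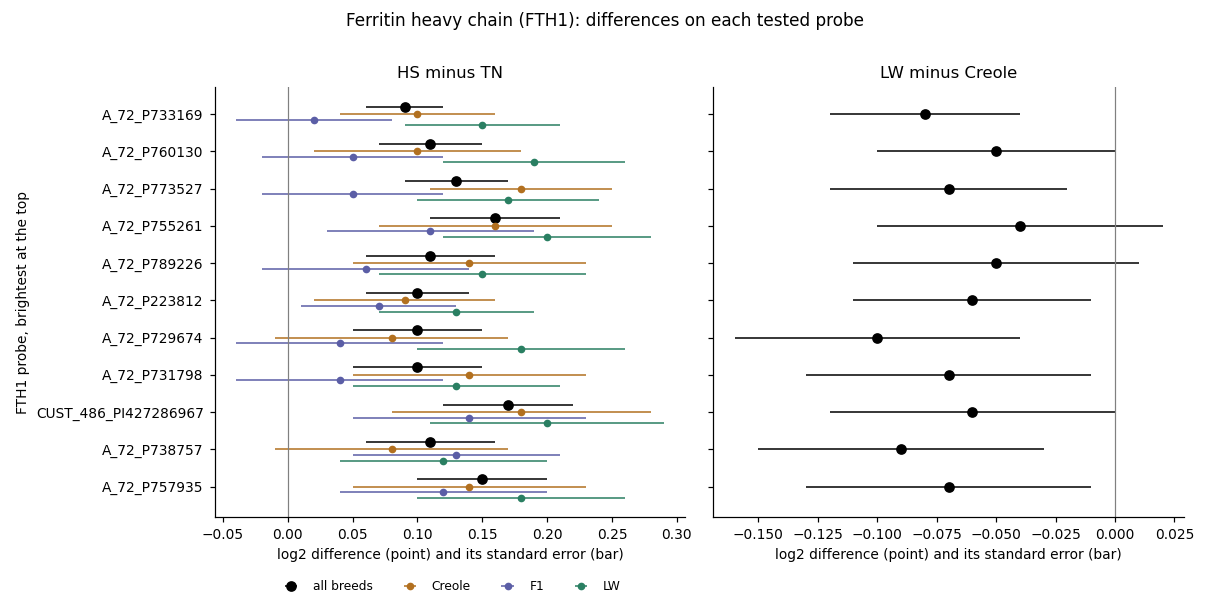
Log2 differences with their standard errors for the 11 tested FTH1 probes, ordered from the brightest: on the left HS minus TN over all breeds (black) and within each breed, on the right LW minus Creole. All HS minus TN points over all breeds lie between 0.09 and 0.17, and all LW minus Creole points between −0.10 and −0.04.

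The red cell genes gave unlike differences between temperatures. HBB was lower in HS on both of its probes, while the tested ALAS2 and SLC4A1 probes differed by 0.04 and 0.06. On the brighter HBB probe, O859, the levels were 9.85, 9.06 and 10.45 in Creole TN and 8.81, 8.81, 9.59, 10.38 and 9.7 in Creole HS. F1 pigs gave 10.95, 10.45, 10.19 and 10.64 in TN and 10.16, 8.93, 8.29, 9.71 and 9.65 in HS. LW pigs gave 10.39, 10.32, 10.54 and 10.17 in TN and 9.31, 8.73, 9.23, 10.1 and 9.79 in HS. The temperatures did not overlap in F1 and LW pigs, by a narrow margin in both, and overlapped in Creole pigs.

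The HBB difference was −0.85 (SE 0.21), a 1.8-fold lower level in HS. It was −0.33 (SE 0.39) in Creole, −1.21 (SE 0.35) in F1 and −0.92 (SE 0.35) in LW pigs. Of the 15 HS arrays 14 were below the TN mean of their breed, 5 were below every TN array, and the difference was negative on 5 of 5 slides. The dimmer probe A_72_P055481, well above background on 21 arrays, gave −0.73 (SE 0.16), with 14 of 15 HS arrays below their TN mean and 10 below every TN array. The probes share no run longer than 7 bases and correlated at r = 0.718 over the deviations from group means. LW and Creole did not differ beyond their error on O859 (0.20, 95% interval −0.34 to 0.74) or on A_72_P055481 (−0.18, 95% interval −0.58 to 0.22).

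ALAS2 had 1 probe, O895, dim but well above background on 24 arrays. Its sequence too resembles the opposite strand of the coding sequence, unchecked by alignment, so its values may not be those of the ALAS2 messenger. Its levels ranged from 5.63 to 6.28 in TN and from 5.65 to 7.52 in HS, with medians of 5.9 and 5.86. The highest value, 7.52, was F1 HS array 5, followed by F1 HS array 1 at 6.58. The difference between temperatures was 0.04, and −0.07 without F1 HS array 5. LW and Creole differed by −0.10 (95% interval −0.46 to 0.27, adjusted p = 0.767).

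SLC4A1 was read by 2 probes that disagreed on its presence. O801 was well above background on 26 of 26 arrays, with levels of 11.79 to 12.49 in TN and 11.91 to 12.77 in HS, and A_72_P070746 on none. F1 HS array 5 was again the highest, at 12.77. The difference on O801 was 0.06 between temperatures, or 0.01 without F1 HS array 5, and −0.10 between LW and Creole (95% interval −0.31 to 0.12, adjusted p = 0.591). The O801 probe correlated with HBB at r = −0.04 over the deviations from group means and with ALAS2 at 0.443, and HBB correlated with ALAS2 at 0.233. Another defining red cell marker, AHSP, the chaperone of free alpha globin, was lower in HS on both of its tested probes, by 0.47 on A_72_P385718 and by 0.57 on O4980. The mean level of the tested red cell markers lay between 8.33 and 9.38 in HS and between 8.78 and 9.54 in TN. Other blood and vessel markers differed among themselves. The endothelial gene CDH5 was lower in HS (−0.23, limma adjusted p = 0.0254), 1 of 3 endothelial markers, where 12.2% of all tested probes passed. PECAM1 (−0.04) and VWF (−0.03) did not pass on their brightest probes, but 1 of the 3 other tested PECAM1 probes passed as lower in HS. The platelet gene GP1BB was lower on its brighter probe (−0.27, limma adjusted p = 0.0112) but not on its other tested probe. The platelet genes GP9 and ITGA2B had differences of 0.05 and 0.18 and none of the 4 tested neutrophil markers passed (−0.20 to 0.40). How much blood each sample held was not measured, and its part in the HBB difference was not tested.

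**Figure D4:**
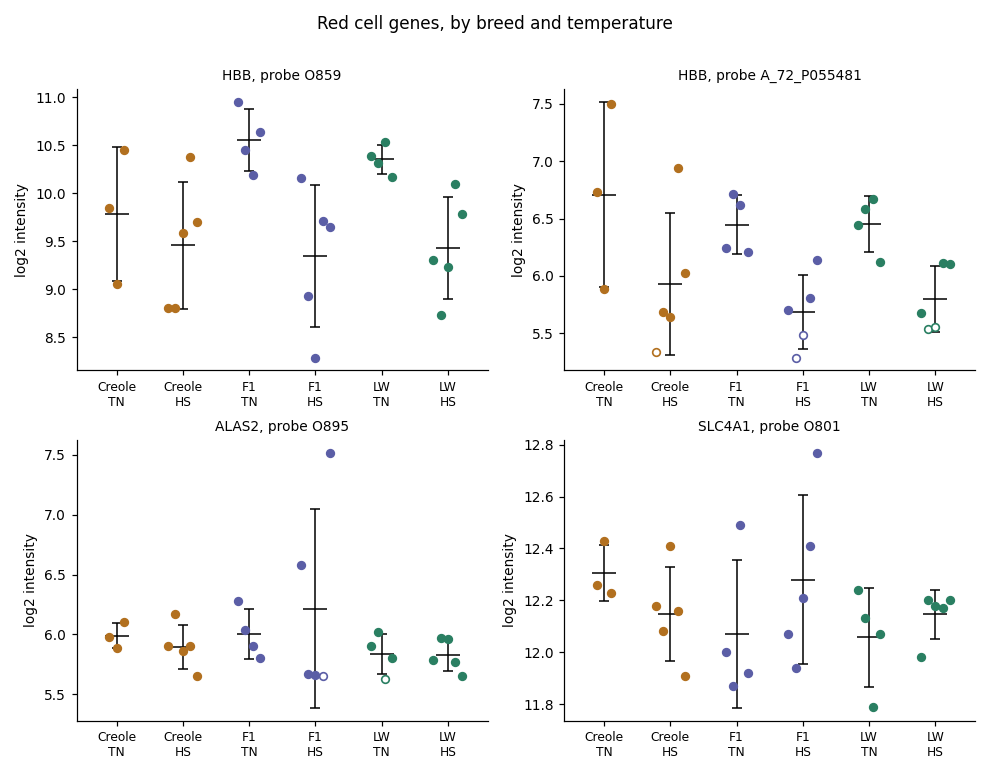
Log2 intensity (y axis) of both HBB probes, the ALAS2 probe and SLC4A1 probe O801 on each of the 26 arrays, by breed and temperature. Filled points are well above background, and bars give the group mean ± SD. HBB is lower in HS on both probes, and F1 HS array 5 is the highest point for ALAS2 and SLC4A1.

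F1 pigs were compared with the mean of their parental breeds: over all probes 0.00671% passed, and none of the 28 did in limma (smallest adjusted p = 0.537, 2 of 28 at an unadjusted p under 0.05). For the interaction of breed and temperature 0.00224% of all probes passed, and again none of the 28 (smallest adjusted p = 0.897, 0 of 28 at an unadjusted p under 0.05). A p that misses the threshold does not show that the breeds responded alike.

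Lists of other genes of the same pathways, 1 probe per gene, show where these genes sit among their partners. All of these lists were drawn up with earlier results of these data known. Their adjusted p-values in HS are therefore not independent support. Of 29 genes of iron uptake, storage, export and regulation, 20 were on the array and 19 were tested. In the iron list 2 genes were higher in HS and none was lower, a share of 10.53% beside 12.2% over all tested probes, with a median difference of 0.09 beside 0.0024 over all tested probes. They were FTL, the ferritin light chain (0.27, adjusted p = 0.00951, higher in 13 of 15 HS arrays), and SLC25A37, mitoferrin, which carries iron into mitochondria (0.27, adjusted p = 0.0248, 13 of 15). The count was 4 with array weights or the mean of all probes of a gene and 6 with slide as a fixed block. The SLC25A37 call was lost without LW TN array 2 (adjusted p = 0.0535) and without the breed term (0.0651). Under scaling to the 75th percentile FTL was 0.17 higher and did not pass (adjusted p = 0.0957).

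Between breeds, 2 genes of that list were higher in LW and 4 were lower, a share of 31.6% beside 14.3% over all tested probes, and the largest 3 of each direction are named. SLC39A14, an importer of iron that is not bound to transferrin, was 0.37 higher (adjusted p = 0.00556) and CYBRD1, a ferric reductase, 0.35 higher (adjusted p = 0.0157). LCN2, which binds bacterial iron carriers, was 1.30 lower (adjusted p = 0.0219), the iron chaperone PCBP2 0.53 lower (adjusted p = 0.00883) and TFR2, the second transferrin receptor, 0.34 lower (adjusted p = 0.0183). Without Creole TN array 3 the LCN2 call was lost (adjusted p = 0.0512). Under scaling to the 75th percentile CYBRD1 was 0.25 higher and did not pass (limma adjusted p = 0.0591). TFR2 was lower on its brighter probe but not on its other tested probe.

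The genes of haem handling that passed were few. Of 12 genes of haem and haemoglobin scavenging and breakdown, all tested, 2 were lower in HS (16.67%, beside 12.2% over all tested probes) and the list median was 0.04. They were the biliverdin reductases BLVRB (−0.56, adjusted p = 0.000278, 15 of 15 HS arrays below their TN mean) and BLVRA (−0.20, adjusted p = 0.0372, 13 of 15). Both were also lower in LW, BLVRB by 0.32 (adjusted p = 0.0404) and BLVRA by 0.29 (adjusted p = 0.0115), as was the haem and folate transporter SLC46A1, by 0.50 (adjusted p = 0.008), 3 of the 12 genes (25%, beside 14.3% over all tested probes). SLC46A1 was lower on its brighter probe but not on its other tested probe. Of 9 tested genes of haem synthesis, CPOX (−0.33, adjusted p = 0.0183) and PPOX (−0.19, adjusted p = 0.0232), enzymes of successive late steps, were lower in HS (22.22%, beside 12.2% over all tested probes), with a list median of −0.11. CPOX (−0.42, adjusted p = 0.0125) and the porphyrin transporter ABCB6 (−0.40, adjusted p = 0.0445) were lower in LW (22.2%, beside 14.3%), with a median of −0.17. Some of these calls lay close to the threshold. In HS that of BLVRA was lost without any 1 of 14 arrays (−0.24 to −0.18 over the 26 fits, adjusted p up to 0.0703), with slide as a fixed block (adjusted p = 0.0572) and without the breed term (0.155), where that of CPOX was lost too (0.0795). In LW the BLVRB call was lost without any 1 of 12 arrays (−0.39 to −0.28, up to 0.0895) and with slide as a fixed block (0.0766), and the ABCB6 call without any 1 of 15 (−0.48 to −0.36, up to 0.0917). Both were also lost without the filter on dim probes (0.0532 and 0.0584).

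Among 11 tested genes of iron-sulphur cluster assembly, 1 passed in HS, the cysteine desulphurase NFS1 (−0.28, adjusted p = 0.00208), a share of 9.09% that is below the 12.2% of all tested probes, with a list median of −0.09. The HS count was 4 under scaling to the 75th percentile and 0 without the breed term (NFS1 −0.26, limma adjusted p = 0.0669). NFS1 was also the one gene of the list that passed in LW, where it was lower by 0.42 (adjusted p = 0.000431), 9.09% of the list beside 14.3% over all tested probes, with a median of −0.09. The LW count was 4 under scaling to the 75th percentile. Of 35 other red cell genes 17 were on the array and 13 were tested. This list was drawn up with the lower level of red cell genes under heat already known, so its temperature differences are given as a description. They ran from −0.65 for the embryonic zeta globin HBZ to 0.53 for the membrane anchor ankyrin, ANK1. Between these lay AHSP at −0.47, SLC25A39, a mitochondrial carrier needed for haem synthesis, at −0.43, the carbonic anhydrase CA1 at −0.39, EPB42, a protein of the red cell membrane skeleton, at −0.38, and the other 7 genes at −0.16 to 0.08. The list median was −0.11. HBZ (−0.62, adjusted p = 0.0137) and SLC25A39 (−0.42, adjusted p = 0.0205) were lower in LW, 2 of the 13 genes (15.4%, beside 14.3% over all tested probes).

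**Figure D5:**
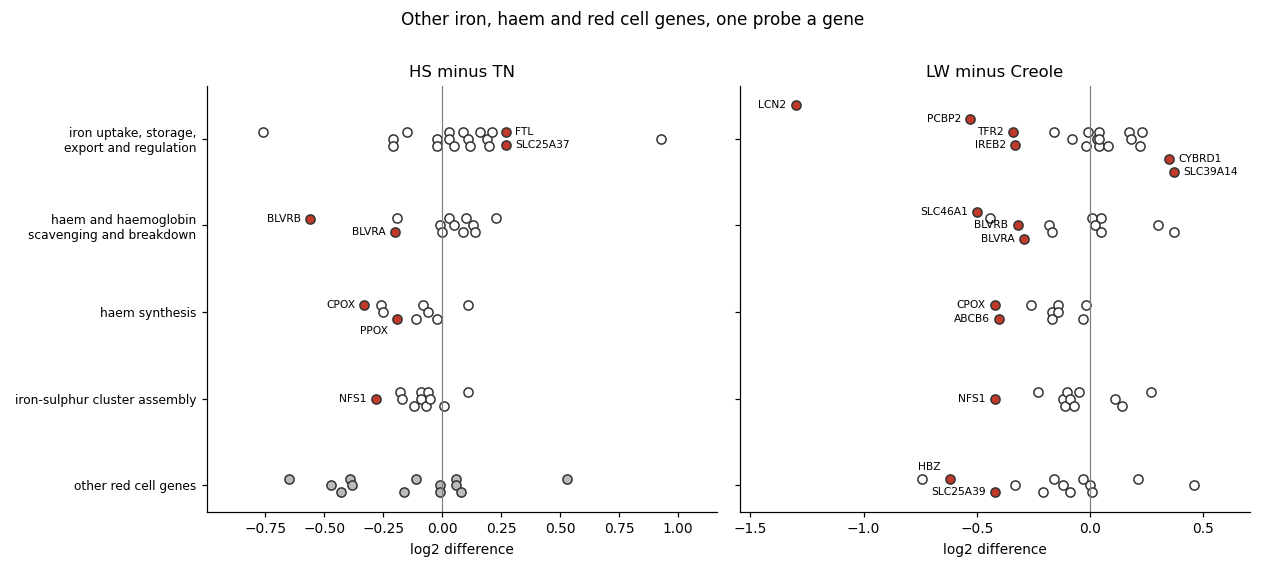
Log2 differences (x axis) of the other genes of 5 lists, 1 point per gene, for HS minus TN (left) and LW minus Creole (right). Red, named points passed the adjusted threshold of 0.05 over all tested probes, in lists chosen with earlier results of these data known. Grey points, the red cell list in HS, are a description with no test. In HS the 2 red points of the iron list lie to the right and those of the other tested lists to the left.

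Finally, the 3 named genes whose deviations from the group means were most alike were listed for the brightest probe of each gene, as a description over 26 arrays. The ICA probe was set aside for TF, and the TF probes for ICA. TF was closest to ROBO1 (r = 0.834), HNRNPK (0.749) and HOMER2 (0.742). ICA was closest to ROBO1 as well (0.827), then CS (0.796) and HMG20B (0.78). For HBB the nearest were PTPN9 (0.683), SLA-DOB (0.68) and FOPNL (0.676), for SLC4A1 NEK6 (0.953), ST3GAL5 (0.909) and LITAF (0.871), and for ALAS2 RARS (0.831), CENPF (0.818) and ANKLE2 (0.804). SLC40A1 was nearest to CNTROB (0.927), CBR4 (0.91) and HTR3A (0.9), HMOX1 to MUC19 (0.754), TRIM27 (0.75) and AGPAT4 (0.745), TFRC to OTUB1 (0.814), TMBIM6 (0.802) and SDHB (0.74), and FTH1 to PELO (0.675), NAT10 (0.666) and UBE2Q1 (0.654).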

How the data were processed

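The genes and lists were chosen with earlier results of these data known. Each deposited scanner file gives per spot a median pixel intensity that is not normalized, a processed intensity with the background subtracted, and flags set by Agilent Feature Extraction 10.10.1.1 for spots well above background, saturated or non-uniform. The authors' own table contains quantile-normalized log2 intensities of 44104 probes and served only as an alternative.

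With no background correction, median intensities were quantile-normalized and log2-transformed in R 4.3.3 (packages limma 3.58.1, jsonlite 2.0.0, and data.table, version 1.17.8). Non-uniform spots (at most 16 per array) were then set to missing, spots of one probe were averaged, and no spot was saturated. Models were fitted by lmFit and eBayes, allowing an intensity trend, to probes detected well above background by 8 or more arrays. HS minus TN, LW minus Creole and F1 minus the mid-parent came from a model with breed and temperature, and differences within breeds and the interaction from 6 group means. P-values were adjusted by Benjamini-Hochberg over 44703 probes, with a threshold of 0.05. The fit was tested on simulated data. The authors' model also has random effects for the pen, the slaughter date and both parents, which the labels lack, so related animals were treated as independent and the p-values measure the spread between these animals.

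Probes were named from the accessions, symbols and descriptions of the files and a RefSeq table of pig genes. Of 60305 probes, 10106 were named by accession, 14160 by symbol and 185 by synonym. A probe described as several ferritin genes, and an FTH1 sequence whose name in the files is an identifier only, were not counted. No genome was used and probes were not realigned. A list gene was represented by its brightest tested probe. Some genes are not reported here and were left out of their lists. Named genes were, for each list, up to 5 rises and 5 falls past the threshold in HS and up to 3 each way in LW, and for each of the 8 genes the 3 named genes with the highest correlation. Alternatives were normexp background correction (offset 50), 75th percentile scaling of the processed intensity, no filter, detection on every array, no intensity trend, slide as a fixed or random block, array weights, no breed term, the mean of all probes of a gene, the deposited values, and leaving out each array. Figures were drawn with matplotlib 3.10.9 in Python 3.11.15.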

Additional observations from a re-analysis of the deposited data

Results flagged for a closer look

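In 140 groups of 4 or 5 arrays, the highest or lowest array of 6 lay far from the others of its group (Dixon's test at the 95% level), where chance alone gives about 1 in 20. Both FTH1 probes that share 35 bases were lowest on F1 TN array 1, at 17.44 on A_72_P729674 (next array 17.72) and at 17.35 on A_72_P731798 (next 17.6). FTH1 probe A_72_P789226 was lowest on Creole HS array 4, at 17.85 beside 17.94. TF probe A_72_P687306 was lowest on LW TN array 3, at 6.22 beside 6.58. SLC4A1 probe O801 was lowest on LW HS array 1, at 11.98 beside 12.17. SLC40A1 probe O9278 was highest on LW HS array 2, at 5.7 beside 5.56, and was well above background on 2 arrays of that group.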

How the results depend on the processing

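No alternative reversed a called value. For these genes, 1 probe in place of 2 passed for LW minus Creole under 75th percentile scaling, no filter, no intensity trend, slide as a fixed block, and detection on every array, and 0 to 3 passed when 1 array was left out. TF O10046 lost its call under 75th percentile scaling, array weights, no filter, no intensity trend and slide as a fixed block (adjusted p of 0.0503 to 0.0891) and was not tested with detection on every array, while ICA kept its call in the settings that use all 26 arrays (−1.36 to −1.13, adjusted p of 0.0228 to 0.0469) and lost it without any 1 of 9 arrays (−1.53 to −0.91 over the 26 fits, adjusted p up to 0.0926). SLC40A1 O9278 passed with array weights (−0.27, adjusted p = 0.0345), and SLC40A1 A_72_P256402 passed without any 1 of 4 arrays (adjusted p down to 0.0263). TF A_72_P318598 passed in 1 of the 26 fits with 1 array left out (limma adjusted p = 0.0392). TF A_72_P308693 in HS ranged from 1 (normexp) to 1.65 (75th percentile) and HBB O859 from −0.91 to −0.83.

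Over all probes, HS minus TN gave 3531 calls without the breed term and 3971 to 6566 with 1 array left out, LW minus Creole 4825 to 8189, F1 minus the mid-parent 43 with array weights, 0 with slide as a fixed block and 3 to 51 with 1 array left out, and the interaction 2, 0 and 1 to 4 in the same settings. Calls in the iron list for HS were 4 with array weights, 4 with the mean of all probes, 1 without the breed term, 6 with slide as a fixed block and 1 to 3 with 1 array left out, and 5 to 7 for LW. In haem scavenging HS gave 1 without the breed term, 1 with slide as a fixed block and 1 to 3 with 1 array left out, and LW gave 5 under 75th percentile scaling, 5 with array weights and 2 to 5. In haem synthesis HS gave 1 without the breed term and 2 to 3 with 1 array left out, and LW gave 4 with the mean of all probes, 1 without the filter and 1 to 3. In iron-sulphur assembly HS gave 4 under 75th percentile scaling, 2 with the mean of all probes, 0 in limma without the breed term (NFS1 −0.26, adjusted p = 0.0669) and 1 to 2 with 1 array left out, and LW gave 4 under 75th percentile scaling, 2 with normexp, 2 with detection on every array and 1 to 2. In the red cell list, whose HS counts are a description because the list was chosen with this difference known, HS gave 5 with array weights, 5 with slide as a random block, 5 with detection on every array and 2 to 5 with 1 array left out, and LW 2 to 3. The cause was not tested, except that detection on every array leaves fewer probes. Over single probes and settings, 16 of 744 values kept their sign and lost their call, among them FTL in HS (0.17) and CYBRD1 in LW (0.25) under 75th percentile scaling, and 1 gained one. With 1 array left out, 73 of 2080 lost and 5 gained a call. Both totals also hold values that had no call to lose, so these shares understate how often a call was lost.

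No paired analysis was possible because the labels carry no replicate numbers shared between groups. Levels near background limit TF O10046, TF A_72_P318598, ALAS2, TFRC A_72_P035411, SLC40A1 O9278 and HBB A_72_P055481, and 26 arrays limit the precision of all of them.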
